A study of Mus musculus with 24 samples.

Results

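The cytosolic ribosomal protein genes were followed in BAT of 24 mice, as the 80 genes whose mouse symbols name a protein of the large or small ribosomal subunit. They were taken from a table of 12615 genes by their symbols alone, with pseudogene names ending in -ps and the S6 kinase genes left out. All 80 passed the filter on low counts, and by their symbols 48 of them belong to the large subunit and 32 to the small subunit. The symbols Rpl3l, Rpl10l and Rpl39l of the same rule matched no row of the table. Of the 80, 77 are annotated as protein coding, while Rpl32l, Rpl6l and Rps4l are annotated as pseudogenes.

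Each cytosolic ribosome carries a single copy of almost every ribosomal protein, so cells make these proteins in balanced amounts, and their mRNAs belong to the most abundant of any cell. Most of these mRNAs begin with a C followed by a run of pyrimidines, the 5′ terminal oligopyrimidine (TOP) tract, through which mTORC1 and LARP1 set how well they are translated and how long they last. Brown adipocytes in the cold raise mitochondrial and thermogenic gene expression, and protein synthesis is part of the growth of the tissue.

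The 4 groups held 6 mice each. Cre- mice carry floxed alleles of TBLR1 and TBL1 and no recombinase. BATdKO mice carry the same floxed alleles and Ucp1CreERT2, a tamoxifen-inducible recombinase driven by the Ucp1 promoter and meant to act in brown adipocytes. The paper adds that Ucp1 can appear early in adipogenesis, so that deletion in early progenitors is possible. Mice of both genotypes received tamoxifen, and temperature treatment started 3 weeks after its last injection. The labels give the age at injection as 5 years, which is not a plausible age for laboratory mice, and the methods of the study give it in weeks. Mice were kept at 30°C for 4 days or, after a stepwise decrease, at 8°C for 6 days by the labels, while a shorter stay in the cold is given in the study. The labels describe females and the legend of the paper males of the C57Bl6/N background. The question of the design is which genes respond to cold and which of these responses change without both corepressors.

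The kit reads 1 tag per transcript, at its 3′ end, and long transcripts therefore gain no extra counts. The total count per library ranged from 699703 (Cre- mouse 4 at 30°C) to 11527643, with a median of 6644364. Levels are given as CPM, counts scaled to a common library size of 1e+06 after TMM correction. Library numbers formed separate consecutive blocks at 30°C and at 8°C, so library number and temperature cannot be told apart. Nothing in the labels ties a mouse of one group to a mouse of another.

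The deleted genes did not follow the labels. Tbl1xr1, which encodes TBLR1, had 16.4 to 38.6 CPM in libraries labelled Cre- at 30°C (median 21.7) and 17.0 to 42.0 in those labelled BATdKO at 30°C (median 34.5). At 8°C it had 18.2 to 24.6 CPM in libraries labelled Cre- (median 21.0) and 33.7 to 44.3 in those labelled BATdKO (median 39.5), with no overlap. Tbl1x was also higher in BATdKO libraries, with medians of 55.1 against 39.9 CPM at 30°C and 54.3 against 40.7 at 8°C. A 3′ tag outside the deleted exons checks nothing, and the position of these exons is not given in the sources used here. Every direction between genotypes below follows the labels.

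The tissue label was checked against marker lists. Ucp1, the uncoupling protein of brown adipocytes, had 28.9 to 548 CPM at 30°C and 968 to 2076 CPM at 8°C. All 7 hepatocyte markers (Alb, Apoa1, Apoa2, Ttr, Serpina1c, Mup3 and Fgb) were present in these libraries labelled brown fat. Their summed level ranged from 27169 to 40113 CPM, above that of the 10 brown adipocyte markers (910 to 6318) in every library, and Mup genes took 10.9 to 16.5% of all counts. None of the 7 was called in any contrast. Ribosomal protein mRNAs are made by all cells, so the values below are those of the mixture, and the part of the liver-type transcripts in them was not tested. In bulk tissue, fewer cells of a type and less RNA per cell cannot be told apart.

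The levels of the 80 genes spanned a wide range. Rpl41, which encodes the shortest ribosomal protein, had the highest mean over 24 libraries at 794 CPM ± 82.6 (SD). The genes of the acidic stalk proteins, which recruit elongation factors to the large subunit, came next with 679 CPM ± 61.4 for Rplp1 and 626 ± 63.6 for Rplp2. The lowest were Rpl32l at 1.93 CPM ± 0.820, Rpl13a at 9.19 ± 1.76 and Rps4l at 13.2 ± 3.27. The median protein-coding member had 193 CPM, and Rpl41 was 86.4-fold above Rpl13a, the lowest of these.

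This range holds an uncertainty of counting. The last 200 bases of the transcripts of the 80 genes were compared with the rows outside the 80. A row with at least 95% identity over at least 150 bases was given to its best-matching gene. In this way 53 of the 80 genes received rows and 27 received none. These 268 near-identical rows, of which 255 are annotated as pseudogenes, held 42.7% of the counts of both kinds together. For 22 genes the copies held more than 50% of the counts. Rpl21 had the most with 30 copy rows. With its copies added Rpl13a had 84.2 CPM in place of 9.19, Rps6 had 1182 in place of 208 and Rpl35a had 1405 in place of 215. Rpl6l was 100% identical to Rpl6 over 200 bases and Rpl32l 97.5% identical to Rpl32 over 198 bases, so these pairs cannot be separated with certainty. How reads that fit several places were counted is not given in the sources used here.

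**Figure D1:**
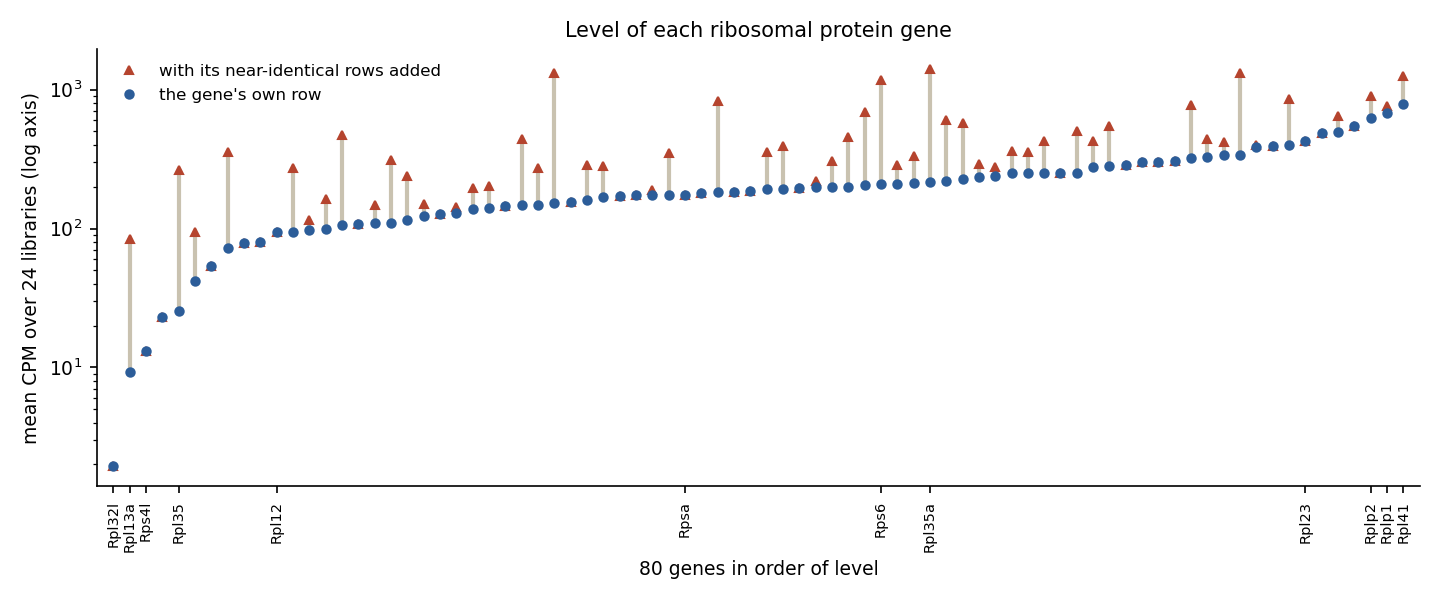
Mean CPM over 24 libraries (log axis) of each of the 80 genes in order of level, with 12 of them labelled, as a circle for the gene's own row and a triangle with the counts of its near-identical rows added. The lowest circle is Rpl32l at 1.93 CPM and the highest Rpl41 at 794, and Rpl13a moves from 9.19 to 84.2 CPM once copies are added.

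The start of these genes was read from RefSeq promoters of GRCm38.p6, since the TOP tract is defined there. Of the 80 genes 58 had a promoter in the table. An unbroken run of at least 8 C or T on the coding strand that reached within 20 bases of the annotated start was present in 32 of 58 (55.2%). The same holds for 24.2% of 8675 tested genes and for 23.7% of all 27025 genes with a promoter, each gene counted once. A C at the annotated start itself with at least 5 pyrimidines in a row was found in 14 of 58 (24.1%), against 3.2% and 3.01%. Runs can lie within each other under these definitions, and a match is a description of letters at an annotated start, not a measured start. The following windows of 30 bases belong to genes described below, with 15 bases before the annotated first base, and capitals mark the part of the longest run that lies in the window.

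Rps6: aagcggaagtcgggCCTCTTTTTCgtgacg

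Rps27: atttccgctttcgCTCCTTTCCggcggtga

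Rplp2: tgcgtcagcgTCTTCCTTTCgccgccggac

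Rpl35a: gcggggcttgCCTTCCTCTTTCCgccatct

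Rpl12: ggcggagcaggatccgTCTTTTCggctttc

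Rpsa: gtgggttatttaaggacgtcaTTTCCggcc

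Rplp0: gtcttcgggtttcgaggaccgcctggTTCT

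Rpl13a: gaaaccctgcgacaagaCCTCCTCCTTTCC

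These windows lie at chr4:86857353-86857382 (minus strand), chr3:90213634-90213663 (minus), chr7:141447636-141447665 (plus), chr16:33056467-33056496 (plus), chr2:32961697-32961726 (plus), chr9:120127751-120127780 (plus), chr5:115559452-115559481 (plus) and chr7:45128731-45128760 (minus), in the order of the sequences. Rpl35a has 3 annotated starts in the table, and the one with the longest run is shown. Rps6, Rps27, Rplp2 and Rpl35a have a run that covers the annotated start, and Rpl12, Rpsa, Rplp0 and Rpl13a have theirs after it.

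The first comparison asked how cold changes these genes in Cre- mice. Ribosomal protein genes were lower at 8°C: 27 of 80 passed the threshold (edgeR quasi-likelihood test, adjusted p under 0.1 over 12485 genes) and 0 were called higher. Over all genes tested 3.59% were called lower and 5.57% higher, 9.15% in either direction. The median log2 fold change of the 80 genes was -0.19, against -0.02 over all genes, and 73 of 80 were below 0. At unadjusted p under 0.05, 47 were lower and 2 higher, against 8.95% and 9.69% of all genes. The changes were small, between -0.36 and -0.21 among the 27 called.

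**Figure D2:**
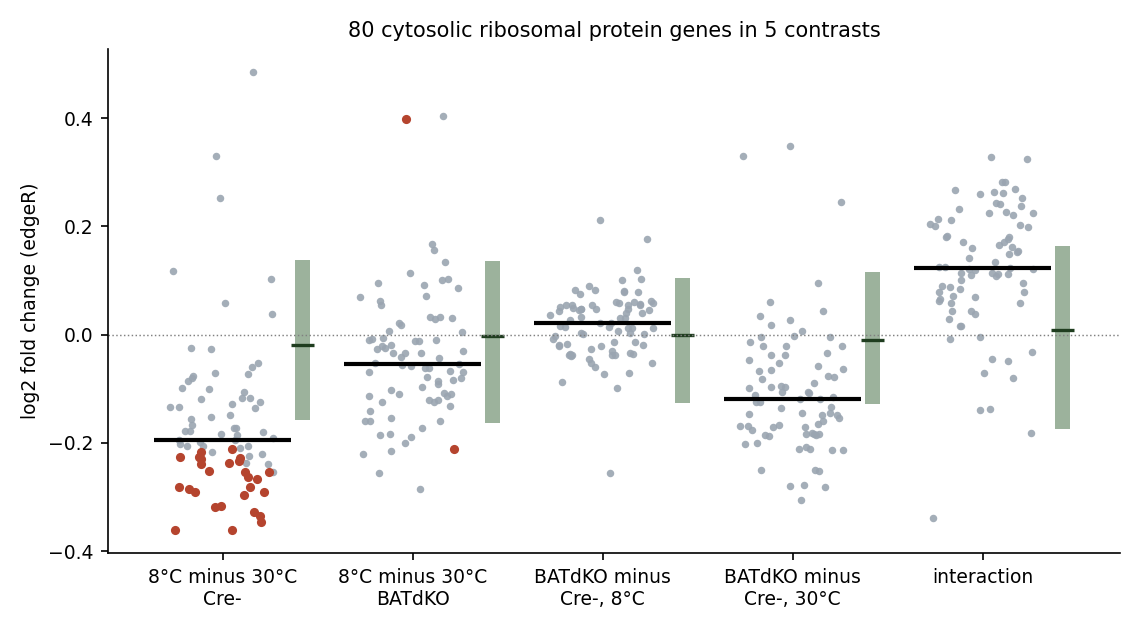
Log2 fold change (edgeR) of the 80 genes in each of 5 contrasts, with genes past the adjusted threshold in red, the median of the 80 as a black line, and the median and quartiles of all 12485 tested genes as a green mark and bar. In Cre- mice in the cold the median of the 80 is at -0.19 and 27 are red. In both genotype contrasts and in the interaction no point is red.

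The small subunit gene Rpsa had the smallest p. It encodes RPSA, which is needed to mature the small subunit and is also known as a laminin receptor. Rpsa had 165 to 219 CPM in Cre- mice at 30°C (median 201) and 147 to 174 CPM at 8°C (median 152). The ranges overlapped between 165 and 174 CPM. The log2 fold change was -0.35 (SE 0.07, adjusted p = 0.0017, edgeR), and the exact permutation test of 6 against 6 gave a two-sided p of 0.00433.

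Rpl12, a large subunit protein at the base of the stalk, had 93.5 to 126 CPM at 30°C (median 111) and 78.9 to 90.5 at 8°C (median 87.2). No cold library reached the lowest warm one. The log2 fold change was -0.36 (SE 0.07, adjusted p = 0.00242, edgeR). The exact permutation p was 0.00216, the smallest that 6 against 6 can give.

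Rplp0, the stalk protein that anchors Rplp1 and Rplp2, had 200 to 265 CPM at 30°C (median 230) and 181 to 209 at 8°C (median 189). Its log2 fold change was -0.28 (SE 0.06, adjusted p = 0.00647, edgeR). Rpl23, a large subunit protein known to bind MDM2, had 428 to 525 CPM at 30°C (median 493) and 375 to 433 at 8°C (median 397), with a log2 fold change of -0.26 (SE 0.06, adjusted p = 0.0083, edgeR). In both genes the highest cold library lay just inside the warm range. Rpsa, Rpl12 and Rpl23 had no near-identical row in the table, while Rplp0 had 3.

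Groups that did not overlap were found in 4 genes, all lower in the cold, against 0.745% of all genes tested. Besides Rpl12 they included Rpl3, a protein near the peptidyl transferase centre, with 165 to 185 CPM at 30°C and 145 to 160 at 8°C, and Rpl37a with 264 to 299 and 227 to 247 CPM. Of all genes 2.19% were higher without overlap, and none of these was among the 80.

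**Figure D3:**
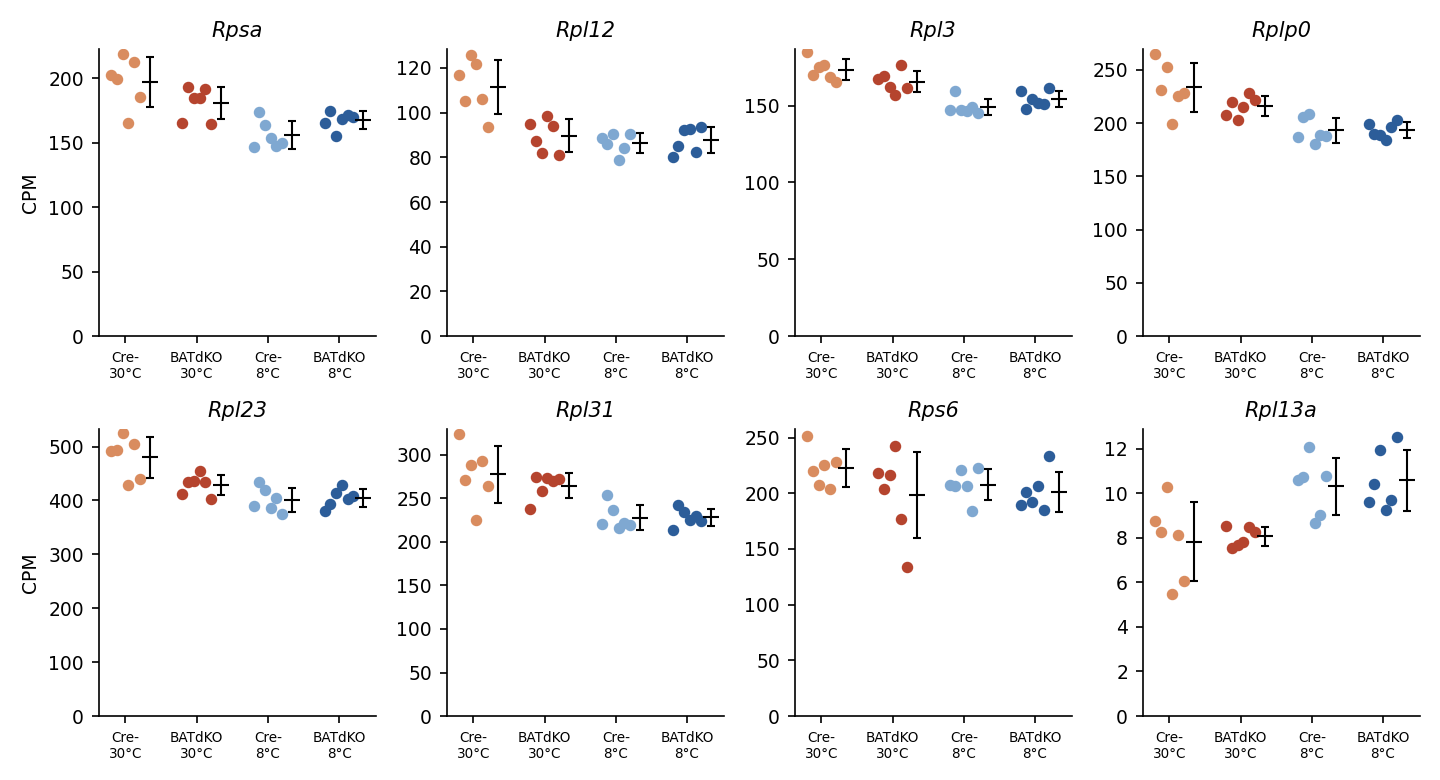
CPM per library (circles), with the mean and SD of 6 mice beside them, for 8 of the 80 genes in the 4 groups. In Rpl12 and Rpl3 the Cre- libraries at 8°C lie below all Cre- libraries at 30°C, in Rps6 the groups overlap, and Rpl13a is the gene with higher values at 8°C.

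The calls fell on both subunits, with 16 of 48 large subunit genes and 11 of 32 small subunit genes. The large subunit genes were Rpl3, Rpl7, Rpl8, Rpl9, Rpl10a, Rpl12, Rpl22, Rpl23, Rpl26, Rpl27a, Rpl31, Rpl35a, Rpl36, Rpl37a, Rplp0 and Rplp2. The small subunit genes included Rps4x, Rps7, Rps12, Rps14, Rps20, Rps27 and Rpsa. The medians over all members of the subunits were -0.19 and -0.21. By copies, 11 of the 27 genes that received no copy row and 16 of the 53 that did were called lower. Their medians were -0.21 and -0.19.

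Among the stalk genes Rplp2 fell by 0.23 on the log2 scale (SE 0.07, adjusted p = 0.0698, edgeR), from 533 to 718 CPM at 30°C (median 691) to 507 to 626 at 8°C (median 585). Its call was lost without any one of Cre- mice 2, 5 and 6 at 30°C and 1, 4 and 6 at 8°C (adjusted p of 0.104 to 0.177, edgeR). Rplp1 had 662 to 831 CPM at 30°C (median 739) and 593 to 729 at 8°C (median 645), and its log2 fold change of -0.18 (SE 0.07) did not pass (adjusted p = 0.146, edgeR). The most abundant gene, Rpl41, had a log2 fold change of -0.20 (SE 0.08) and also did not pass (adjusted p = 0.145, edgeR). Rps6, the substrate of the S6 kinases, had 204 to 252 CPM at 30°C (median 223) and 184 to 222 at 8°C (median 207). Its difference of -0.10 (SE 0.10, adjusted p = 0.661, edgeR) was no larger than its error. Whether the called and the uncalled stalk gene differ was not tested.

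Paralogs were read beside their parents. Rps4x, the X-linked small subunit gene, fell by 0.33 (SE 0.08, adjusted p = 0.0145, edgeR), from a median of 223 CPM to 173. Rps4l, annotated as a transcribed pseudogene, had 7.97 to 13.7 CPM at 30°C (median 11.3) and 10.4 to 17.0 at 8°C (median 16.2), and its log2 fold change of 0.48 (SE 0.19) did not pass (adjusted p = 0.141, edgeR). It passed without BATdKO mouse 6 at 30°C (0.0243) and without Cre- mouse 2 at 8°C (0.0681, both edgeR). Rps27, a zinc finger protein of the small subunit, fell by 0.33 (SE 0.08, adjusted p = 0.0114, edgeR). Rps27l, its paralog known as a p53 target, had medians of 79.4 and 83.4 CPM and a log2 fold change of 0.04 (SE 0.06). Rpl32 varied from 11.6 to 39.0 CPM among Cre- mice at 30°C alone, and neither Rpl32 (log2 fold change -0.13, SE 0.31) nor Rpl32l (0.25, SE 0.31) passed.

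Rpl13a, which also serves in the GAIT complex of translational control, lay on the other side. It had 5.47 to 10.3 CPM in Cre- mice at 30°C (median 8.20) and 8.65 to 12.1 at 8°C (median 10.7), with a log2 fold change of 0.33 (SE 0.12) that did not pass (adjusted p = 0.113, edgeR). It passed without Cre- mouse 3 at 30°C (0.0488) and without Cre- mouse 4 (0.0907) or 5 (0.0979) at 8°C, all edgeR. Its own row held few counts, from 4 to 111 at 30°C. When its 2 near-identical rows were added, the difference was -0.12, so the sign rests on how reads are shared between the copies.

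Of 266 near-identical rows tested, 25 were called lower and 0 higher in Cre- mice in the cold, against 3.59% and 5.57% of all genes. Their median log2 fold change was -0.20. In BATdKO mice in the cold 4 were called lower and 0 higher, against 3.31% and 3.76% of all genes, with a median of -0.14. Since the same reads may be shared between a gene and its copies, they are no separate measurement. With all copies added to their gene, 31 of 80 genes were called lower in Cre- mice in the cold, against 3.71% of all genes. Of the 31, 24 were among the 27. The median of the 80 genes in the cold was then -0.21 in Cre- and -0.09 in BATdKO mice.

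Libraries differed within groups. Over the 77 protein-coding genes, the median distance of a library from each gene's own mean was highest in Cre- mice 1 and 3 at 30°C, at 0.28 and 0.18 on the log2 scale. In mouse 1, 74 of the 77 genes lay above their mean. Across the other 4 Cre- mice at 30°C the median distance was 0.01 to 0.11, and in Cre- mice at 8°C it was -0.15 to 0.03. In Cre- mouse 4 at 8°C 5 of 77 genes lay above their mean.

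The same mice 1 and 3 had the most muscle transcripts. The summed level of the 10 skeletal muscle fibre genes in the table, of 11 listed, was 3356 and 7773 CPM in them and 2.88 to 333 in the other 4 Cre- mice at 30°C. It was 3.26 to 1448 CPM in Cre- mice at 8°C, 15.4 to 587 in BATdKO mice at 30°C and 0.782 to 144 in BATdKO mice at 8°C. Of the 10 genes 1 was called lower in the cold in Cre- mice and 0 in BATdKO mice, against 3.59% and 3.31% of all genes. Without these 2 libraries, a setting chosen after the values were seen, 8 of 80 genes were called lower and 1 higher, against 1.57% and 3.9% of all genes, and all 8 were among the 27. Among the 8 were Rpsa, Rpl12, Rpl10a, Rpl23, Rplp0 and Rpl3, with log2 fold changes between -0.30 and -0.18, and the median of the 80 was -0.13. Rpl13a was the gene called higher (0.48, SE 0.13, adjusted p = 0.04, edgeR). Leaving out 1 library at a time gave 18 (Cre- mouse 3 at 30°C, and mice 4 and 6 at 8°C) to 37 genes called lower (Cre- mouse 4 at 30°C), and 16 of the 27 were called in all 24 such fits. The part of muscle RNA in the difference was not tested.

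**Figure D4:**
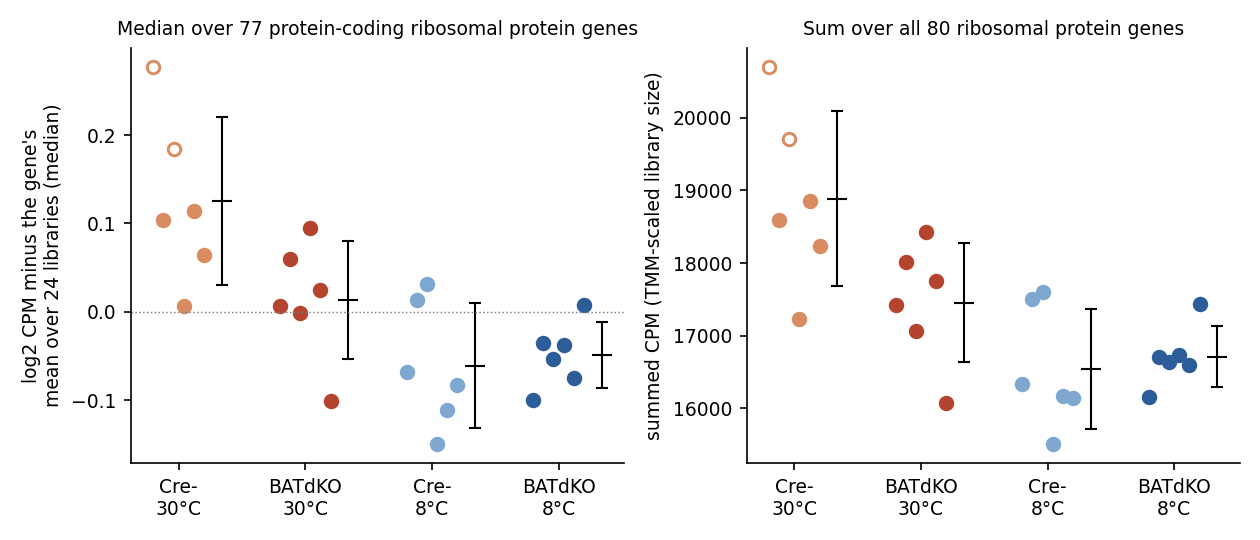
Each circle is 1 library, with the mean and SD of 6 mice at its right. Left, the median over 77 protein-coding ribosomal protein genes of log2 CPM minus the gene's mean over 24 libraries, and right, the summed CPM of all 80 genes (axis not from 0). Open circles are the 2 libraries richest in muscle fibre transcripts, Cre- mice 1 and 3 at 30°C, which lie highest at 0.28 and 0.18.

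Other transcripts moved with temperature too. Of all genes 5.57% were called higher and 3.59% lower in Cre- mice in the cold, and 3.76% and 3.31% in BATdKO mice. The summed level of 4 erythroid genes was 3517 to 4705 CPM in Cre- mice at 30°C and 4598 to 6161 at 8°C. In BATdKO mice it was 3360 to 4645 and 4313 to 5921. All 4 were called higher in the cold in both genotypes. Brown adipocyte markers had 910 to 4601 CPM in Cre- mice at 30°C and 2905 to 5262 at 8°C, and 1464 to 4382 and 3383 to 6318 in BATdKO mice. In each genotype 5 of the 10 were called higher in the cold and 1 lower. At 30°C their medians were 1690 CPM in Cre- and 3464 in BATdKO mice, with 0 of the 10 called between genotypes. Mouse 6 was the highest of the Cre- mice (4601) and the lowest of the BATdKO mice (1464) there. The part of these markers in the genotype difference at 30°C was not tested. The 5 endothelial markers had 123 to 145 CPM in Cre- mice at 30°C and 149 to 209 at 8°C, and in BATdKO mice 127 to 155 and 150 to 211, which overlapped. Of the 5, 3 were called higher in the cold in Cre- mice and 2 in BATdKO mice. Macrophage markers (7 of 7 in the table, 0 called in any contrast), stromal markers (7 of 7, 2 called lower in BATdKO mice in the cold) and proliferation markers (3 of 6, 0 called) overlapped between temperatures. Of 6 B cell markers 2 were in the table, with 1 called higher in BATdKO mice in the cold, in BATdKO against Cre- mice at 8°C, and in the interaction, and of 6 T cell markers 0. The part of any of these in the difference was not tested.

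As a share of all counts, the 80 genes took 1.80 to 2.36% in Cre- mice at 30°C (mean 2.05 ± 0.219, SD, n = 6) and 1.45 to 1.77% at 8°C (mean 1.59 ± 0.12). In BATdKO mice the share was 1.72 to 1.93% at 30°C (mean 1.83 ± 0.0817) and 1.35 to 1.65% at 8°C (mean 1.54 ± 0.102). Neither pair of temperatures overlapped. The shallowest library, Cre- mouse 4 at 30°C, had 1.80% with a 95% Wilson interval of 1.77 to 1.83%, which covers counting error only. Mitochondrially encoded genes took 19.3 to 29.7% of counts in Cre- mice at 30°C and 26.7 to 34.4% at 8°C, and 24.0 to 32.8% and 28.1 to 37.9% in BATdKO mice. Without mitochondrially encoded genes in the denominator the means were 2.71, 2.54, 2.30 and 2.24% for Cre- and BATdKO at 30°C and Cre- and BATdKO at 8°C. With total counts in place of TMM factors, 59 genes were called lower in Cre- mice and 43 in BATdKO mice, where 22.6% and 20.5% of all genes were called lower. Under that scaling the median of all genes moved to -0.20 and -0.19, and the medians of the 80 were -0.37 and -0.24.

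**Figure D5:**
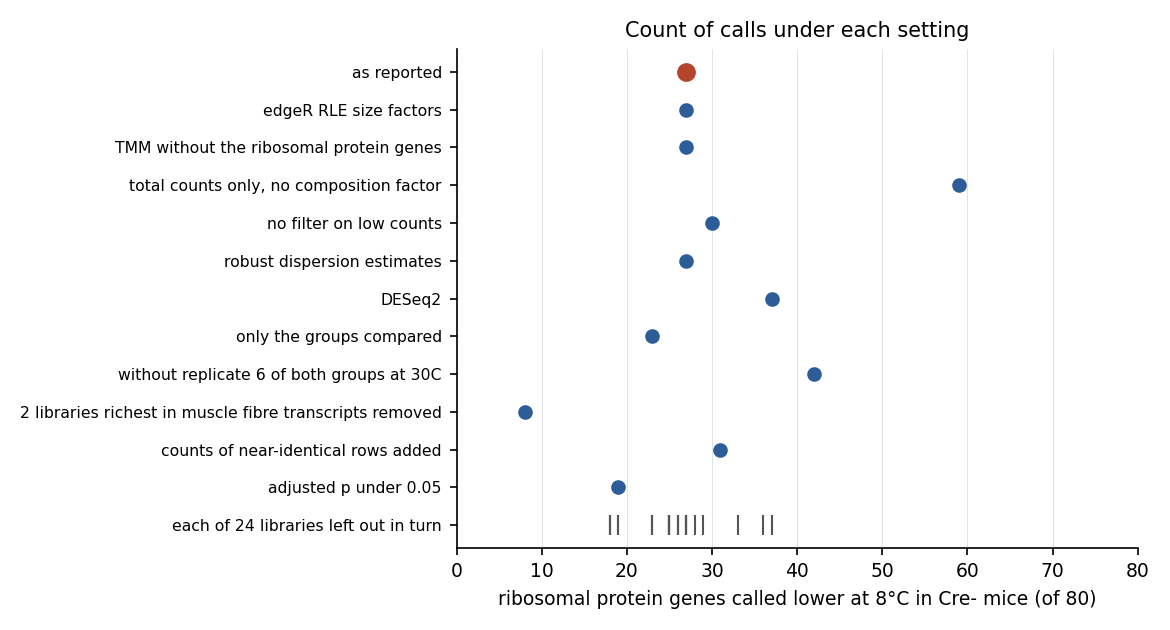
Number of the 80 genes called lower at 8°C in Cre- mice under each setting (circles, with the reported 27 in red), and in the 24 fits that each leave out a library (ticks). Counts run from 8 without the 2 muscle-rich libraries to 59 with total counts only, and from 18 to 37 when 1 library is left out.

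The second comparison asked the same of BATdKO mice. Of the 80 genes 1 was called higher and 1 lower at 8°C, against 3.76% and 3.31% of all genes tested (7.07% in either direction). The median log2 fold change was -0.05, with 57 of 80 below 0. At unadjusted p under 0.05, 9 were lower and 2 higher, against 8.66% and 8.52% of all genes.

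Rpl31, a protein near the exit of the nascent chain tunnel, was the gene called lower. It had 238 to 275 CPM in BATdKO mice at 30°C (median 271) and 213 to 242 at 8°C (median 228), with a log2 fold change of -0.21 (SE 0.07, adjusted p = 0.0893, edgeR). The warm and cold libraries overlapped between 238 and 242 CPM, and leaving out 1 library ended the call in 13 of 24 cases (adjusted p of 0.101 to 0.161, edgeR), namely BATdKO mice 2 to 6 at 30°C, all BATdKO mice at 8°C and Cre- mice 1 and 5 at 8°C. In Cre- mice Rpl31 had 226 to 324 CPM at 30°C and 216 to 254 at 8°C, with a log2 fold change of -0.29 (SE 0.07).

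Rpl13a was called higher, with 7.56 to 8.54 CPM at 30°C (median 8.04) and 9.26 to 12.5 at 8°C (median 10.1). No cold library fell to the warm range. The log2 fold change was 0.40 (SE 0.12, adjusted p = 0.0599, edgeR). The call was lost without BATdKO mouse 2 at 30°C, mouse 3 at 8°C or mouse 6 at 8°C (adjusted p of 0.136 to 0.156, edgeR), and with its copies added the difference was -0.079. The largest log2 fold change among the 80 was that of Rps4l at 0.40 (SE 0.19), which did not pass (adjusted p = 0.265, edgeR).

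Groups lower in the cold without overlap were found in 2 genes, neither of which passed. Of these Rplp0 had 203.3 to 229 CPM at 30°C and 184 to 203.3 at 8°C, where the nearest libraries differ by less than 0.1 CPM, with a log2 fold change of -0.16 (SE 0.06, adjusted p = 0.178, edgeR). Without overlap and lower were 1.24% of all genes tested, and higher 1.75%. The lowest fold changes belonged to Rps24 (-0.29, SE 0.21, adjusted p = 0.52, edgeR) and Rps20 (-0.26, SE 0.10, adjusted p = 0.139, edgeR). Rps24, a small subunit gene mutated in Diamond-Blackfan anaemia, ranged from 97.5 to 242 CPM at 30°C and 112 to 173 at 8°C.

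Set side by side, the 27 genes called lower in Cre- mice had a median log2 fold change of -0.27 there and -0.11 in BATdKO mice, where 25 of 27 were below 0. These genes were chosen by their Cre- values, so a smaller median elsewhere is no evidence of a difference. The other 53 had medians of -0.13 and -0.02. Rpsa had -0.35 in Cre- mice and -0.11 (SE 0.07) in BATdKO mice, with BATdKO medians of 185 CPM at 30°C and 169 at 8°C. Both contrasts enter the interaction, which tests whether the response differs between genotypes. It called 0 of 80 genes (edgeR), against 0.0961% of all genes in either direction, 0.0561% positive and 0.0400% negative. At unadjusted p under 0.05, 8 genes had a positive interaction (a smaller decrease or larger increase in BATdKO) and 1 a negative one, against 3.44% and 4.61% of all genes, 8.05% together. The median interaction was 0.12, with 69 of 80 above 0.

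The smallest p of the interaction was that of Rpl12, at 0.33 (SE 0.10, adjusted p = 0.357, edgeR). Rps25, a small subunit protein used by viral internal ribosome entry sites, had 0.32 (SE 0.29) with a wide spread. The most negative were Rpl35 (-0.34, SE 0.16, adjusted p = 0.596, edgeR) and Rpl23a (-0.18, SE 0.16). Without the 2 muscle-rich libraries, 3 genes had a positive interaction and 0 a negative one at unadjusted p under 0.05, and the median was 0.07. The shares of all genes with all 24 libraries were 3.44% and 4.61%, and those without the 2 are not reported here. At adjusted p under 0.1, 0 of the 80 and 0.2% of all genes passed without the 2.

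The third comparison set BATdKO against Cre- mice at 8°C. None of the 80 genes was called (edgeR), 0 were at unadjusted p under 0.05, and DESeq2 also called 0. Over all genes tested, 1.82% were called, 0.697% higher and 1.12% lower, and 9.24% were at unadjusted p under 0.05. In none of the 80 were the groups apart without overlap, against 0.873% lower and 1.07% higher among all genes. The summed level of the 2 B cell markers was 19.0 to 23.5 CPM in Cre- and 28.8 to 44.6 CPM in BATdKO mice at 8°C. The median log2 fold change was 0.02 with a median SE of 0.08, and 52 of 80 genes were above 0.

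Rpsa had the smallest p at 8°C, with 147 to 174 CPM in Cre- mice (median 152) and 155 to 175 in BATdKO mice (median 169). The groups overlapped, and the log2 fold change was 0.10 (SE 0.07, adjusted p = 0.729, edgeR). The furthest from 0 were Rps24 at -0.26 (SE 0.21) and Rpl39 at -0.10 (SE 0.26), and on the other side Rpl32l at 0.21 (SE 0.30) and Rps25 at 0.18 (SE 0.21). All 4 had errors close to or above the difference. Rplp0 had medians of 189 and 193 CPM, Rplp1 of 645 and 638, Rplp2 of 585 and 593, and Rps6 of 207 and 197.

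The fourth comparison set BATdKO against Cre- mice at 30°C. By edgeR 0 of the 80 genes and 0 of all genes passed, and DESeq2 called 4 of the 80 lower and 90 of all genes (0.713%). At unadjusted p under 0.05, 18 of 80 were lower and 2 higher in edgeR, against 5.14% and 5.29% of all genes. The median log2 fold change was -0.12, with 70 of 80 below 0, and the medians were -0.10 for large and -0.15 for small subunit genes. This contrast uses the same Cre- libraries at 30°C as the cold contrast in Cre- mice, so the 2 are not independent.

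Rpl12 had the smallest p, with 93.5 to 126 CPM in Cre- mice (median 111) and 81.1 to 98.6 in BATdKO mice (median 90.7). A stretch of overlap lay between 93.5 and 98.6 CPM. The log2 fold change was -0.31 (SE 0.07, adjusted p = 0.149, edgeR). It passed without Cre- mouse 6 (adjusted p = 0.0157), without Cre- mouse 2 (0.0874) and without BATdKO mouse 4 at 30°C (0.0911, all edgeR). The 4 genes called by DESeq2 included Rpl12 and Rpl35a, with adjusted p of 0.0608 and 0.0699 (DESeq2).

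Rpl35, a protein at the tunnel exit, was on the other side, with 17.8 to 27.3 CPM in Cre- mice (median 24.8) and 25.2 to 34.2 in BATdKO mice (median 27.6). Its log2 fold change was 0.33 (SE 0.11, adjusted p = 0.26, edgeR), and with its 3 copy rows added it was -0.058. Rpl32l had 0.35 (SE 0.30). Rpl11, which with Rpl5 and the 5S rRNA binds MDM2 when ribosome assembly fails, had 227 to 315 CPM in Cre- mice and 99.9 to 265 in BATdKO mice, with -0.28 (SE 0.15, adjusted p = 0.531, edgeR). Without the 2 muscle-rich Cre- libraries the median of the 80 genes was -0.05, and 6 were lower and 1 higher at unadjusted p under 0.05. The shares of all genes with all 24 libraries were 5.14% and 5.29%, and those without the 2 are not reported here. At adjusted p under 0.1, 0 of the 80 and 0 of all genes passed without the 2.

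Mouse 6 of each genotype at 30°C had the highest Tbl1xr1 and Tbl1x levels of the Cre- libraries and the lowest of the BATdKO libraries there, against the order of the other mice. Without these 2 libraries 42 of the 80 genes were called lower in Cre- mice in the cold, where 5.66% of all genes were. Between genotypes at 30°C 3 were called lower, where 1.64% of all genes were called lower and 4% in either direction.

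Other genes of translation were read from lists. Of 26 tested genes of translation elongation and other TOP mRNAs, 4 were lower in Cre- mice in the cold and 0 higher, with a median log2 fold change of -0.10. They were Eef1g (-0.24, SE 0.06), Eef1d (-0.29, SE 0.08) and Eef1b2 (-0.21, SE 0.07), subunits of the exchange factor that reloads eEF1A, and Eif3f (-0.31, SE 0.09), a subunit of initiation factor 3. In BATdKO mice 3 were lower and 0 higher, with a median of -0.11. These 3 were Vim (-0.87, SE 0.23), an intermediate filament gene, Pabpc1 (-0.35, SE 0.09), the poly(A) binding protein, and Nap1l1 (-0.26, SE 0.08), a histone chaperone. Vim was also lower in BATdKO than in Cre- mice at 8°C (-0.84, SE 0.23, adjusted p = 0.0707, edgeR). Over all genes tested, 3.59% were called lower and 5.57% higher in Cre- mice in the cold. The shares called lower were 3.31% in BATdKO mice in the cold and 1.12% between genotypes at 8°C.

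Of 48 tested genes of ribosome biogenesis and RNA polymerase I, 2 were higher and 0 lower in Cre- mice in the cold, with a median of 0.03, and 1 was higher in BATdKO mice. The shares of all genes, for this and the following lists, are 5.57% higher and 3.59% lower in Cre- mice and 3.76% and 3.31% in BATdKO mice. They were Ddx21 (0.21, SE 0.06) and Ebna1bp2 (0.42, SE 0.13), a helicase and a processing factor of the nucleolus, and in BATdKO mice Nip7 (0.73, SE 0.25). Of 21 genes of growth signalling to translation, Mtor alone was called in Cre- mice (0.82, SE 0.13, adjusted p = 0.000171, edgeR), and 0 in BATdKO mice. Its level of transcript is no measure of mTORC1 activity.

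The ribosomal proteins of mitochondria are encoded by other nuclear genes and serve the ribosomes that translate the mitochondrial genome. Of 76 rows named Mrpl or Mrps, 9 were higher and 1 lower in Cre- mice in the cold, and 6 and 1 in BATdKO mice. Their medians were 0.08 and 0.13, and the rows include the pseudogene name Mrpl23-ps1. Mrpl20 had 0.66 (SE 0.15) and Mrps6, the 1 called lower, -0.42 (SE 0.12) in Cre- mice. The mitochondrially encoded genes had 19 of 32 higher in Cre- mice and 17 in BATdKO mice, with medians of 0.62 and 0.44. Ribosomal components whose names fall outside the rule had 3 of 9 lower in Cre- mice. These were Rack1 (-0.30, SE 0.06), a scaffold protein of the small subunit, Rps3a1 (-0.29, SE 0.07) and Rps3a2 (-0.29, SE 0.08). Whether Rps3a1 and Rps3a2 share reads was not checked, so they may be no separate measurements. In BATdKO mice Rpl7l1 was higher (0.28, SE 0.07). Of 147 tested rows with pseudogene names ending in -ps, 11 were lower in Cre- mice, and 4 lower and 1 higher in BATdKO mice.

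The runs at the start were set beside the calls. Of the 27 genes called lower in Cre- mice in the cold 19 had a promoter in the table, and 7 of these had a run of at least 8 pyrimidines, against 25 of 39 among the other genes. A C with pyrimidines at the start was present in 3 of 19 and 11 of 39. Of the genes described first, Rpsa, Rpl12 and Rplp0 do not start in such a run at the annotated position, while Rps6, which was not called, does. No test of this was made.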

How the data were processed

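BAT of 24 mice was sequenced with the QuantSeq 3′ FWD kit. The deposited file holds raw counts per gene, which the authors obtained with Rsubread after trimming (BBDuk) and alignment by STAR to the GRCm38 genome. Their aligner settings, annotation release, strand and handling of multiply mapped reads are not given in the sources used here. The paper removed outliers it does not name, and all 24 libraries were used.

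Counts were filtered with filterByExpr on the 4 groups, scaled by TMM and fitted in edgeR 4.0.16 (R 4.3.3) with a mean per group. P-values were adjusted by Benjamini-Hochberg over 12485 genes, with a threshold of 0.1, the paper's. Standard errors are the log2 fold change over the root of F. Exact permutation tests used log2(CPM + 0.5), two-sided. The steps were tested on simulated data. Mice are numbered in accession order, which pairs none. Nothing says that mice were housed or prepared independently, so p-values measure the spread between these samples.

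The members, the gene lists and the tests were chosen with earlier results of these data known. Genes were named by rule: in each contrast the 5 called members of smallest p in each direction and the 2 highest and 2 lowest fold changes, paralogs with their parents, stalk genes, Rpsa and Rps6, and the 3 highest and 3 lowest levels. For lists, up to 4 called genes of smallest p were named. Some genes that the rule names are not reported here. Examples of copies, Rpl3, Rpl37a and genes called only under another setting were chosen after their values were seen. Alternatives were RLE, TMM without these genes, total counts, no filter, robust dispersions, DESeq2 1.42.0, only the groups compared, adjusted p under 0.05, and leaving out libraries. Near-identical rows were found with blastn, and adding them and removing the 2 muscle-rich libraries were chosen after seeing the data. If multiply mapped reads were counted in each row, adding rows counts them more than once.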

Additional observations from a re-analysis of the deposited data

Results flagged for a closer look

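Of 100 groups of 6 libraries looked at for a library far from the rest, 7 held one. The limit used passes about 1 in 20 unselected groups by chance. These genes were partly named for extreme fold changes, and several flags share a library, so the rates cannot be compared. Rplp2 was lowest in Cre- mouse 4 at 30°C, the shallowest library, at 533 CPM against 667 to 718 in the other 5. In BATdKO mouse 6 at 30°C Rpl11 had 99.9 CPM against 196 to 265, and Rps4l had 4.21 CPM against 11.0 to 15.2. In Cre- mouse 5 at 8°C Rpl32 had 14.2 CPM against 21.9 to 26.7. In BATdKO mouse 5 at 8°C Rpl32 had 11.2 CPM against 20.3 to 28.2, and Rps24 had 112 CPM against 147 to 173. Rps4l was also low in Cre- mouse 2 at 8°C, at 10.4 CPM against 15.1 to 17.0. All 7 were the lowest of their group, and no cause was tested.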

How the results depend on the processing

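In Cre- mice in the cold, 59 genes were called lower with total counts only, where 22.6% of all genes were. Without mouse 6 of both groups at 30°C 42 were (5.66% of all genes), and without the 2 muscle-rich libraries 8 (1.57%). DESeq2 called 37 lower, including all of the 27, where 3.43% of all genes were. With only the groups compared 23 were called lower, 20 of them among the 27, where 2.64% of all genes were. The count called higher was 1 with only the groups compared, without mouse 6 of both groups, and without the muscle-rich libraries. In BATdKO mice in the cold, 43 genes were called lower with total counts only, where 20.5% of all genes were. With no filter 2 were called lower (3.48% of all genes) and with DESeq2 4 (3.24%). Without the muscle-rich libraries 3 were (4.16%), and with near-identical rows added 4 (3.72%). At adjusted p under 0.05 the count called lower was 0. The count called higher was 0 with total counts, with near-identical rows added, and at adjusted p under 0.05. Between genotypes at 30°C, DESeq2 called 4 lower (0.333% of all genes) and the fit without mouse 6 of both groups 3 (1.64% of all genes). Leaving out 1 library gave 18 to 37 genes lower and 0 to 1 higher for cold in Cre- mice, 0 to 3 and 0 to 1 for cold in BATdKO mice, 0 to 3 lower between genotypes at 30°C, and 0 for genotype at 8°C and the interaction. The cause of these changes was not tested. Total counts only omit the composition factor, and removing libraries leaves fewer samples.

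With near-identical rows added, Rpl13a reversed to -0.12 in Cre- and -0.079 in BATdKO mice in the cold, and Rpl35 to -0.058 between genotypes at 30°C and 0.13 in the interaction. Rpl32l between genotypes at 8°C reversed to -0.057 without BATdKO mouse 5, and leaving out 1 library gave up to 0.40. Without the 10 most abundant genes in the denominator, the share of counts was 2.79 and 2.60% in Cre- and BATdKO mice at 30°C and 2.33 and 2.28% at 8°C, and without mitochondrially encoded genes 2.71, 2.54, 2.30 and 2.24%. Leaving out 1 library moved the mean share between 1.99 and 2.10% in Cre- mice at 30°C, 1.81 and 1.85% in BATdKO mice at 30°C, 1.56 and 1.62% in Cre- mice at 8°C, and 1.51 and 1.57% in BATdKO mice at 8°C. No paired analysis was possible because the labels give no replicate numbers that mice of different groups share. Counts of 3 to 26 in Rpl32l and 4 to 111 in Rpl13a limit what can be said of these genes.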
